A study of Homo sapiens with 6 samples.

Results

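SR proteins and heterogeneous nuclear ribonucleoproteins (hnRNPs) are RNA-binding proteins that decide, together with the spliceosome, which exons of a pre-mRNA are joined. SR proteins carry RNA recognition motifs (RRMs) and a tail rich in arginine and serine, and many of them bind exonic enhancers and favour inclusion of the exon. The hnRNPs coat nascent transcripts, and several of them bind silencer elements and favour skipping, so the balance of both families shapes alternative splicing. Both families also act in mRNA export, stability and translation, and many SR genes limit their own level through exons that bring a premature stop codon.

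The members were chosen by name, as protein-coding genes called SRSF followed by a number or with a symbol that starts with HNRNP. They came to 39 of the 58735 genes listed, or of 19951 protein-coding genes, with 12 SR and 27 hnRNP genes. Their RNA was measured by polyA RNA-sequencing in MDA-MB-231, an established human breast adenocarcinoma line of the triple-negative, mesenchymal type. The 0 Gy group (control, 3 libraries) and the 10 Gy group (RT, 3 libraries) were cells labelled SCR with the genotype given as WT, which per the study's methods carry a non-targeting shRNA, and RNA was taken 24 h after exposure in a 137Cs irradiator. Nothing in the labels says that the libraries came from separate cultures, so p-values measure only the spread between these libraries, which may be technical. The question for the members is what level each had in unirradiated cells and how that level differed 24 h after 10 Gy.

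The libraries held between 15643641 and 28861781 reads on genes. Of the mesenchymal markers, VIM (294 to 312 FPKM at 0 Gy, 247 to 255 FPKM at 10 Gy), CD44 (76.3 to 81.4 and 72.3 to 73.7 FPKM) and AXL (254 to 262 and 180 to 189 FPKM) were high and lower at 10 Gy without overlap. FN1 did not fall, with 24.5 to 29.9 FPKM at 0 Gy and 29.6 to 33.0 FPKM at 10 Gy. EGFR overlapped between doses (26.4 to 31.6 and 27.2 to 27.8 FPKM). The epithelial keratin KRT18 lay between 103 and 117 FPKM at 0 Gy and between 104 and 109 FPKM at 10 Gy. The hormone receptor gene PGR and the T cell gene CD3E were listed at 0 in all 6 libraries and ESR1 did not pass 0.0169 FPKM. ERBB2 lay between 6.76 and 7.51 FPKM at 0 Gy and between 7.44 and 8.08 FPKM at 10 Gy. GATA3 lay between 2.81 and 3.22 FPKM at 0 Gy and between 2.7 and 3.24 FPKM at 10 Gy. Of the blood, endothelial and fibroblast markers looked at, PTPRC, CD3E, VWF and COL1A2 stayed under 0.04 FPKM. PECAM1 lay between 1.22 and 1.23 FPKM at 0 Gy and between 1.88 and 1.97 FPKM at 10 Gy, COL1A1 went from 2.98 to 3.11 FPKM to 4.05 to 4.34 FPKM, and PDGFRB from 1.09 to 1.27 FPKM to 1.41 to 1.46 FPKM. The summed FPKM of all genes moved with dose, between 269611 and 278380 at 0 Gy and between 246920 and 254918 at 10 Gy. The part of these differences in the results was not tested, except that every member was also refitted with the libraries scaled to an equal FPKM sum (TPM), and those values are given where they end a call.

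FPKM, which counts fragments relative to gene length and library depth, is a level per length, and members are ordered on it below, with the gene length the authors used. Differences are given on the scale log2(FPKM + 1), as 10 Gy minus 0 Gy, and a gene was called where limma gave an adjusted p under 0.05 over all 12128 genes that averaged 1 FPKM or more. Of the members, 33 passed this filter, 11 SR and 22 hnRNP genes. SRSF12 and the HNRNPC-like copies HNRNPCL1, HNRNPCL2, HNRNPCL3 and HNRNPCL4 were listed at 0 in all 6 libraries. HNRNPUL2-BSCL2, a read-through of neighbouring genes, had 1 read in control 2 and 2 reads in RT 2 and none in the other libraries.

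The promoters of the 3 hnRNP genes with the largest falls, of SRSF3, among the 3 highest SR genes, and of SRSF11, the member called higher, are shown first. They are annotated promoters, and which start sites these cells use was not measured. RefSeq (GRCh38.p14) gave a promoter for 35 of the 39 members. SRSF2, HNRNPA1, HNRNPA1P48 and HNRNPCL3 had no entry. The stretches below lie within the 200 bases before the RefSeq start and outside every exon annotated in GENCODE 29, and capitals mark the motifs searched, on either strand, which were the CCAAT box, the GC box GGGCGG, the ETS-type motif CCGGAAG, the TATA box TATAAA and the E2F-type motif TTTCCCGC. They are HNRNPAB at chr5:178204333-178204506 (plus strand), HNRNPD at chr4:82373992-82374118 (minus strand), HNRNPF at chr10:43408883-43409057 (minus strand), SRSF3 at chr6:36594162-36594352 (plus strand) and SRSF11 at chr1:70205621-70205681 (plus strand).
HNRNPAB: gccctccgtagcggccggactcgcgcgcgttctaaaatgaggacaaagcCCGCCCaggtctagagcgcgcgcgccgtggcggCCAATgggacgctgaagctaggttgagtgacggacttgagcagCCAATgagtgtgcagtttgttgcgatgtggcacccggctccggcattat
HNRNPD: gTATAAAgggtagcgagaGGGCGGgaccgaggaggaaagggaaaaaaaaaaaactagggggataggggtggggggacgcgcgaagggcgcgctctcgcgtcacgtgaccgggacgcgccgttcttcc
HNRNPF: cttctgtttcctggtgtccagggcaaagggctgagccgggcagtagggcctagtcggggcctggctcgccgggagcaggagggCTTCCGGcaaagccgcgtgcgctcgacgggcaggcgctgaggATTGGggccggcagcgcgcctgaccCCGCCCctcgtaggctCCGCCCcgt
SRSF3: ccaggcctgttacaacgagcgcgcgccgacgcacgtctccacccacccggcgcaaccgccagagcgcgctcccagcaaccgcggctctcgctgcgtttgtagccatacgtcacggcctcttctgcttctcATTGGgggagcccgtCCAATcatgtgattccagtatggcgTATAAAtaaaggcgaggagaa
SRSF11: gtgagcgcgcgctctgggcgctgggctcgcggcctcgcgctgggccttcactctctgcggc

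The SRSF3 and HNRNPAB stretches each held 2 CCAAT boxes, in either orientation, and the HNRNPF stretch held 1. Within the 200 bases before the start, HNRNPAB also had a TATA box and HNRNPD an ETS-type motif. Both fell where exons were trimmed off, so the printed stretches do not show them. The SRSF11 stretch is short because exons of SRSF11 itself and of the neighbouring LRRC40 cover 139 of its 200 bases, and no motif searched was in what remained. Over the full 300 bases (250 before and 50 after the start), CCAAT was found in 14 of 20 tested hnRNP promoters (70%), in 2 of 10 tested SR promoters (20%), namely SRSF3 and SRSF8, and in 35.6% of 27305 promoters of all genes. Among 8451 promoters of tested protein-coding genes the share was 36.9%. Where a gene had several entries, members took the entry nearest the annotated gene start, and the background took the one with the lowest coordinate. Shares of members and background, here and for the motifs and GC content below, therefore rest on promoters chosen differently. The GC box was in 16 of 20 hnRNP promoters and 3 of 10 SR promoters, beside 43.8% of all and 71.2% of tested coding promoters. The ETS-type motif was in 3 hnRNP and 2 SR promoters (10.6% of all, 20.9% of tested coding), the TATA box in 3 hnRNP and 1 SR promoters (12.1% and 5.1%), and the E2F-type motif in 1 of each family (1.6% and 2.7%). Some motifs can overlap, and a match says only that the letters are there. Of the hnRNP genes with CCAAT, 10 of 14 were called lower at 10 Gy, and of those without it 3 of 6, beside 23.7% of all genes tested. Whether the calls go with CCAAT was not tested. The median GC content of the promoters was 62.8% for SR, 66.3% for hnRNP and 65.3% for tested coding genes.

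In unirradiated cells the hnRNP genes were the more abundant family. Summed over members, they reached 1761 ± 30.7 FPKM (SD, n = 3) and the SR genes 422.8 ± 8.69 FPKM. HNRNPA1 (ENSG00000135486, chr12:54280193-54287088), which binds exonic and intronic silencers and is among the best-known splicing repressors, was the highest member, with 306, 294 and 293 FPKM at 0 Gy. It made up 16.9% of the hnRNP sum, and with HNRNPK and HNRNPAB 37.0%. HNRNPK, a poly(C)-binding KH-domain protein, had 177, 177 and 178 FPKM, and HNRNPAB had 183, 168 and 179 FPKM, so that these neighbours in the order overlapped. HNRNPF (154 ± 3.04), HNRNPA2B1 (132 ± 2.46), HNRNPC (105 ± 3.15) and HNRNPM (98.1 ± 4.56) followed, and of these the libraries of HNRNPC and HNRNPM overlapped.

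The SR genes lay in a narrower range. SRSF6 was highest, with 75.2, 74.0 and 73.2 FPKM at 0 Gy, then SRSF2 with 73.2, 67.6 and 69.0 FPKM and SRSF3 with 64.7, 61.2 and 59.8 FPKM, and together they made up 48.7% of the SR sum. The libraries of SRSF6 and SRSF2 overlapped. SRSF9 (44.0 ± 2.33), SRSF7 (38.8 ± 1.14), SRSF5 (37.5 ± 1.96) and SRSF1 (32.3 ± 0.321) formed a middle group, in which the libraries of SRSF7 and SRSF5 overlapped. SRSF11 (22.5 ± 0.86), SRSF10 (20.6 ± 0.419), SRSF8 (10.9 ± 0.406) and SRSF4 (10.2 ± 0.839) were lowest. The median level at 0 Gy was 37.5 FPKM over tested SR genes and 61.9 FPKM over tested hnRNP genes, against 7.11 FPKM over all genes tested.

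**Figure D1:**
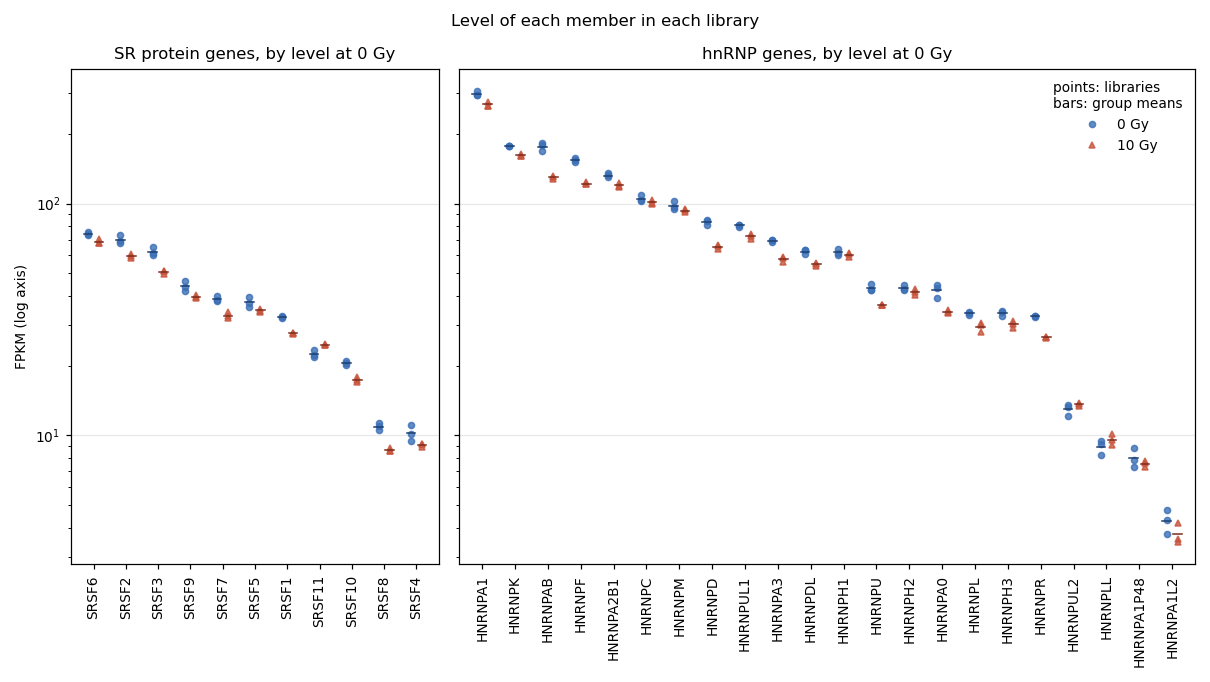
FPKM of the 33 tested members in each library (log axis), with 0 Gy libraries as circles, 10 Gy libraries as triangles and group means as bars, SR genes left and hnRNP genes right. The hnRNP genes run from 298 FPKM (HNRNPA1) to 4.29 FPKM (HNRNPA1L2) at 0 Gy, and the triangles lie under the circles in 24 members and above them in SRSF11.

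The order of levels rests on the gene length by which the authors divided, which equals all exonic bases of all GENCODE 29 transcripts for each of the 33 tested members. For HNRNPU, the scaffold attachment factor, that is 22512 bases against 6827 in its principal transcript, and for SRSF10 10277 against 1631. Dividing by the principal transcript instead, a choice made after the data were seen, moved HNRNPC from place 6 to place 1 (448 FPKM), SRSF10 from place 27 to 14 and SRSF6 from place 10 to 19. The order between members is therefore not fixed by these values, while ratios between doses do not depend on length.

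Most SR genes were lower 24 h after 10 Gy. Of 11 tested, 8 were called lower (SRSF1, SRSF2, SRSF3, SRSF6, SRSF7, SRSF8, SRSF9 and SRSF10), SRSF11 was called higher, and SRSF4 and SRSF5 were not called. Over all genes tested, 23.7% were called lower and 11.9% higher, or 35.6% in either direction. The median difference of the SR genes was -0.22, beside -0.04 over all genes and -0.1 over genes of at least 10 FPKM on average. In 10 of the 11 all 10 Gy libraries lay below all 0 Gy libraries, which held for 32.8% of all genes. With TPM scaling 4 SR genes were called lower and 1 higher, and with CPM of recovered reads 6 lower and 1 higher. The summed SR level went from 422.8 ± 8.69 to 373.2 ± 2.48 FPKM, a ratio of 0.883, and the sum of all genes tested had a ratio of 0.911.

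The 4 SR genes grouped here under a single RRM fell together. The atypical members given below, among them SRSF11, which was called higher, were grouped apart whatever their number of RRMs. SRSF3, the smallest SR protein, which also takes part in mRNA export, had 64.7, 61.2 and 59.8 FPKM at 0 Gy and 49.6, 51.0 and 51.0 FPKM at 10 Gy. Its libraries did not overlap, and the difference was -0.29 (SE 0.037, limma adjusted p = 0.0019). SRSF2, also known as SC35 and mutated in myeloid neoplasms, went from 73.2, 67.6 and 69.0 to 59.6, 58.5 and 60.4 FPKM, a difference of -0.23 (SE 0.037, limma adjusted p = 0.0043). SRSF8, a close relative of SRSF2, was the SR gene with the largest fall, from 11, 10.5 and 11.3 to 8.53, 8.81 and 8.59 FPKM (-0.30, SE 0.038). SRSF7, a zinc-knuckle protein and the nearest relative of SRSF3, fell by 0.23 on the log2 scale, but by TPM the difference was -0.11 (limma adjusted p = 0.051). The sum of these 4 genes at 10 Gy was 0.835 of that at 0 Gy.

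Of the 5 SR genes with 2 RRMs, 3 fell, and their sum had a ratio of 0.906. SRSF1 (ENSG00000136450, chr17:58003360-58007346), the founding SR protein and a proto-oncogene, was the SR gene with the lowest adjusted p. It had 32.6, 32.3 and 32.0 FPKM at 0 Gy and 27.7, 27.8 and 27.5 FPKM at 10 Gy, so that the spread within a dose was far smaller than the gap between doses (-0.22, SE 0.027, limma adjusted p = 0.0017). SRSF6 went from 75.2, 74.0 and 73.2 to 67.9, 67.7 and 70.1 FPKM. Its difference of -0.11 (SE 0.03, limma adjusted p = 0.025) was the smallest of the called SR genes and became 0.02 with TPM scaling. The call was also lost without control replicate 2 (adjusted p = 0.052) and without RT replicate 1 or 2 (0.099 each). CPM of recovered reads (-0.04, limma adjusted p = 0.38) and a replicate block in the fit (0.073) lost it too. SRSF9, which is also found in nuclear stress bodies, was called at a difference of -0.15 (SE 0.042, limma adjusted p = 0.032), near the threshold. Its call was lost without control replicate 1 (adjusted p = 0.056) or 3 (0.074), without RT replicate 1 (0.07), 2 (0.1) or 3 (0.091), and with TPM scaling (-0.02). The same held for CPM of recovered reads (limma adjusted p = 0.18), no filter on low values (0.091), no variance trend (0.054) and a replicate block (0.051). SRSF4 (-0.15, limma adjusted p = 0.076) and SRSF5 (-0.11, limma adjusted p = 0.072) were not called, although their libraries did not overlap between doses.

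The atypical members SRSF10 and SRSF11 went opposite ways. SRSF10, which represses splicing when it is dephosphorylated, for example in heat shock, went from 20.2, 21.0 and 20.5 to 17.8, 17.0 and 17.3 FPKM (-0.23, SE 0.033, limma adjusted p = 0.0026), and with TPM scaling the difference of -0.11 was not called (limma adjusted p = 0.062). SRSF11 (ENSG00000116754, chr1:70205682-70253052), an SR protein that interacts with the U2AF splice-site factor, went from 21.7, 22.3 and 23.4 to 24.9, 24.6 and 24.5 FPKM. The lowest 10 Gy library of SRSF11 was above the highest 0 Gy library, with a difference of 0.13 (SE 0.035, limma adjusted p = 0.027). Its call was lost when control replicate 2 (adjusted p = 0.063) or RT replicate 1 (0.093), 2 (0.08) or 3 (0.068) was left out, and under the alternatives run its adjusted p ranged from 0.00071 to 0.093. A replicate block (limma adjusted p = 0.062) and no filter on low values (0.059) lost the call too. The within-library ratio of SRSF3 to SRSF11, which no scaling between libraries can change, was 2.98, 2.75 and 2.55 at 0 Gy and 1.99, 2.07 and 2.09 at 10 Gy.

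**Figure D2:**
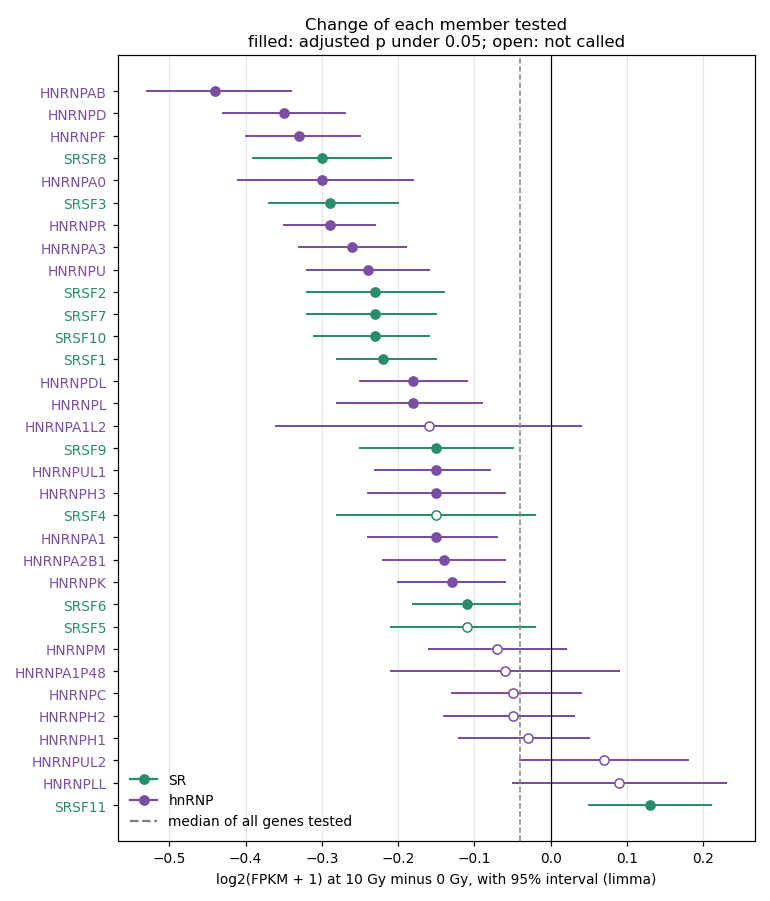
Difference of log2(FPKM + 1), 10 Gy minus 0 Gy, for the 33 tested members with 95% limma intervals, ordered by size, filled where the gene was called, with the median of all genes tested (-0.04) as a dashed line. HNRNPAB at -0.44 is farthest from 0, most members lie left of the dashed line, and SRSF11 is the filled point on the right.

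Of 22 hnRNP genes tested, 14 fell, 8 were not called and none rose, beside 23.7% of all genes called lower and 11.9% higher. With TPM scaling 6 hnRNP genes were called lower and 3 higher, and with CPM of recovered reads 9 lower and 2 higher. By limma on the FPKM as deposited, none of the 22 was higher at an unadjusted p under 0.05. The median difference was -0.15, beside -0.04 over all genes and -0.1 over genes of at least 10 FPKM on average. In 14 of 22 the libraries of both doses did not overlap, with 10 Gy below, as in 32.8% of all genes. The sum over hnRNP genes went from 1761 ± 30.7 to 1540 ± 13.0 FPKM, a ratio of 0.875. HNRNPAB alone passed the 1.3-fold threshold used by the study, which 2.95% of all genes did in the downward direction, and no SR gene did.

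The D-type hnRNPs, known for binding AU-rich RNA, all fell. HNRNPAB (ENSG00000197451, chr5:178204507-178211163), a relative of HNRNPD linked to epithelial-mesenchymal transition in other tumours, went from 183, 168 and 179 FPKM to 132, 130 and 128 FPKM, with 5086 to 8441 reads a library. The gap between doses was many times the spread within them, with a difference of -0.44 (SE 0.04, limma adjusted p = 0.0007). HNRNPD, or AUF1, which promotes decay of AU-rich mRNAs, went from 84.5, 81.0 and 84.7 to 66.3, 63.9 and 65.5 FPKM (-0.35, SE 0.032, limma adjusted p = 0.0007). HNRNPDL, whose gene lies next to HNRNPD on chromosome 4, fell by 0.18 (62.1 ± 1.47 to 54.7 ± 0.836 FPKM), and its call was lost with TPM scaling (-0.05). The HNRNPD to HNRNPDL ratio was 1.34, 1.34 and 1.35 at 0 Gy and 1.21, 1.19 and 1.18 at 10 Gy. Their 3 genes together had a ratio of 0.776, the lowest of the subfamilies.

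Among the A-type genes 4 of 5 fell. HNRNPA1 went from 306, 294 and 293 to 264, 263 and 275 FPKM (-0.15, SE 0.038, limma adjusted p = 0.018). Its call was lost with TPM scaling (-0.03, limma adjusted p = 0.47), with CPM of recovered reads (-0.08, 0.1) and without RT replicate 1 (0.082) or 2 (0.08). No filter on low values (limma adjusted p = 0.079) and a replicate block (0.061) lost it too. HNRNPA2B1, a partner of HNRNPA1 that also reads modified RNA and sorts RNA into exosomes, fell by 0.14, with the call lost by TPM scaling (-0.01) and without RT replicate 1 (adjusted p = 0.078) or 2 (0.071). CPM of recovered reads (-0.06, limma adjusted p = 0.16) and a replicate block (0.058) lost that call too. The HNRNPA1 to HNRNPA2B1 ratio was 2.25 ± 0.0284 at 0 Gy and 2.23 ± 0.013 at 10 Gy. HNRNPA3 also fell (-0.26, 69.2 ± 0.719 to 57.6 ± 1.28 FPKM), and so did HNRNPA0 (44.6, 39.2 and 43.3 to 34.8, 33.8 and 34.1 FPKM, -0.30). HNRNPA0 is a substrate of the stress kinase MK2 and has been studied in the DNA damage checkpoint. HNRNPA1L2, an intronless HNRNPA1-like gene, rested on 87 to 171 reads and was not called (-0.16, limma adjusted p = 0.19).

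The F/H genes, whose proteins bind runs of G, were called in part. HNRNPF went from 157, 154 and 151 to 122, 121 and 124 FPKM (-0.33, SE 0.031, limma adjusted p = 0.00071), and HNRNPH3 fell by 0.15. The HNRNPH3 call was lost with TPM scaling (-0.03) and without control replicate 3 (adjusted p = 0.057) or RT replicate 1 (0.076) or 2 (0.065). HNRNPH1 (60.0, 61.1 and 64.0 against 61.4, 60.4 and 58.6 FPKM) and HNRNPH2 (44.6, 42.8 and 42.4 against 41.5, 42.9 and 40.5 FPKM) overlapped between doses. Their differences of -0.03 (95% interval -0.12 to 0.05) and -0.05 (-0.14 to 0.03) were not called. The HNRNPF to HNRNPH1 ratio within a library was 2.61, 2.51 and 2.35 at 0 Gy and 1.98, 2.01 and 2.11 at 10 Gy, without overlap.

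HNRNPR had the lowest unadjusted p of the hnRNP genes (8.8e-06, limma). This protein, close to SYNCRIP and known from axonal RNA transport, went from 32.7, 32.9 and 32.5 to 26.3, 26.6 and 26.7 FPKM (-0.29, SE 0.027, limma adjusted p = 0.0007). HNRNPK, a cofactor of p53 in the DNA damage response, went from 177, 177 and 178 to 161, 160 and 164 FPKM (-0.13, limma adjusted p = 0.013). Its call was lost with TPM scaling (-0.01, limma adjusted p = 0.88), with CPM of recovered reads (-0.06, 0.18) and without RT replicate 1 or 2 (0.064 each). A replicate block lost it too (limma adjusted p = 0.051). HNRNPM, which promotes splicing tied to epithelial-mesenchymal transition, was not called (98.1 ± 4.56 to 93.3 ± 1.42 FPKM, 95% interval -0.16 to 0.02). HNRNPC, which binds U tracts and keeps Alu exons out of mRNA, was not called either (-0.05, 95% interval -0.13 to 0.04), so that the HNRNPR to HNRNPC ratio went from 0.311 ± 0.00901 to 0.261 ± 0.00427.

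Of the U-type genes HNRNPU, a chromatin scaffold protein, fell by 0.24 (43.2 ± 1.6 to 36.5 ± 0.123 FPKM) and HNRNPUL1, which takes part in DNA end resection, by 0.15. With TPM scaling neither was called (-0.11 and -0.03). HNRNPUL1 was not called with CPM of recovered reads either (-0.08, limma adjusted p = 0.095). HNRNPUL2 was not called (0.07, 95% interval -0.04 to 0.18). HNRNPL, which binds CA repeats, fell by 0.18 (-0.06 and not called with TPM scaling), and its paralogue HNRNPLL, known from CD45 splicing in lymphocytes, was not called (0.09, 95% interval -0.05 to 0.23). HNRNPA1P48 carries the name of a pseudogene but the biotype of a coding gene in the table, and was not called (-0.06, 7.96 ± 0.776 to 7.56 ± 0.201 FPKM).

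These counts depend on how libraries are scaled. Because the FPKM sum was lower at 10 Gy, scaling each library to an equal sum (TPM) raised every difference, and the median of all genes went from -0.04 to 0.07. The calls over all genes turned from 1443 higher and 2874 lower to 3127 higher (25.8%) and 1071 lower (8.83%). Under that scaling 4 SR genes (SRSF1, SRSF2, SRSF3 and SRSF8) and 6 hnRNP genes (HNRNPAB, HNRNPD, HNRNPF, HNRNPA3, HNRNPA0 and HNRNPR) were still called lower, with HNRNPAB at -0.31. HNRNPC, HNRNPUL2 and HNRNPLL were then called higher, beside SRSF11 at 0.25. The same 10 genes were called lower in each of the 16 alternatives run, apart from SRSF8 in 1 of them, where it was under the minimum of 10 FPKM. In bulk RNA a lower level in each cell and fewer cells with a high level cannot be told apart.

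**Figure D3:**
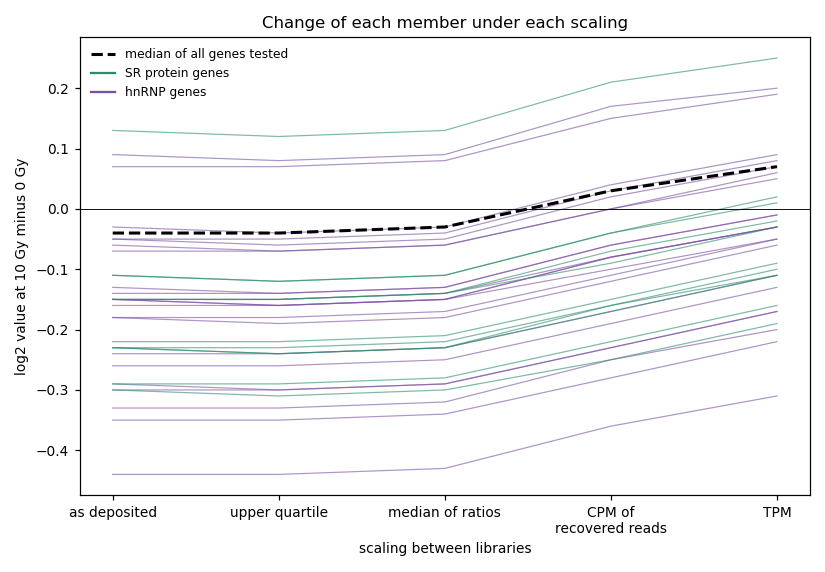
Difference (10 Gy minus 0 Gy, log2 scale) of each of the 33 tested members under 5 ways to scale libraries, SR genes in green and hnRNP genes in purple, with the median of all genes tested as a dashed line. Upper quartile and median-of-ratios scaling left the values nearly as deposited, while CPM of recovered reads and TPM moved members and the median of all genes up together, to 0.03 and 0.07.

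The members are well expressed, and calls were more frequent among such genes. With genes of at least 10 FPKM on average alone, 45.3% of 4781 were called lower, beside 8 of 9 SR genes and 14 of 19 hnRNP genes. The median difference of those 4781 genes was -0.1, beside -0.22 for the SR and -0.15 for the hnRNP genes among them. Across the 33 tested members the difference had a Spearman rho of -0.17 with the level at 0 Gy and of 0.03 with gene length, given as a description over genes that share libraries.

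Annotation of the members was compared with the values, since SR genes are known for unproductive transcripts. All 11 tested SR genes had at least 1 transcript that GENCODE 29 marks as a target of nonsense-mediated decay, as did 13 of 22 hnRNP genes (59.1%) and 43.7% of tested protein-coding genes. SRSF7 had 6 such transcripts of 12 and HNRNPU 9 of 31. Retained-intron transcripts were annotated for 72.7% of SR, 63.6% of hnRNP and 58.8% of tested coding genes. The difference between doses had a Spearman rho of -0.04 with the number of transcripts marked for nonsense-mediated decay over the 33 members. FPKM per gene do not separate productive from unproductive transcripts.

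Some values can hold reads of other genes. Pseudogene rows existed for 17 members and came to 126 in all, 74 of them for HNRNPA1. Reads on them were 0.839% to 0.942% of the HNRNPA1 reads and 2.09% to 2.45% of the HNRNPC reads, and how reads that fit both were counted is not given in the sources used here. For 10 members another gene with at least 1 FPKM overlapped, among them CBX3 (49.4 FPKM) and NFE2L3 (28.0 FPKM) at HNRNPA2B1 and TGFB1 (38.5 FPKM) at HNRNPUL1, all on the opposite strand. Whether counting used the strand is not given in the sources used here, so the values of these members may hold reads of the other gene. Overlap was judged by gene start and end, and the FPKM are those of the whole other gene. How many reads could be shared was not measured.

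Other splicing genes were read beside the members, against the 23.7% of all genes called lower and 11.9% higher, and with TPM scaling against 8.83% lower and 25.8% higher. Among genes of at least 10 FPKM on average, 45.3% were called lower. Of 18 hnRNP proteins that carry another gene symbol, 12 fell and none rose (median -0.16), and with TPM scaling 4 were called lower. PCBP1, a poly(C)-binding relative of HNRNPK, went from 91.3 ± 1.62 to 64.6 ± 1.22 FPKM (-0.49), a larger difference than any member had, and PTBP1, the polypyrimidine tract repressor, from 120 ± 1.3 to 94.8 ± 1.17 FPKM (-0.34). Of 45 Sm and snRNP core genes 24 fell and none rose (median -0.16), with LSM6 (-0.50) and LSM2 (-0.46), parts of the ring on U6 snRNA, falling most. With TPM scaling 11 of them were called lower and 4 higher. Of 28 SR-related proteins 9 fell and 1 rose (median -0.08), or 35.7% called beside 35.6% of all genes, and with TPM scaling 2 were called lower and 6 higher. LUC7L2, a U1 snRNP protein, fell by 0.28 and TRA2B, an exon activator, by 0.25, while SON, a scaffold of nuclear speckles, went from 24.2 ± 1.81 to 27.3 ± 0.247 FPKM (0.17, limma adjusted p = 0.042).

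The calls among enzymes and importers that act on SR proteins depended on the scaling. Of 13 tested kinases, importers and phosphatase subunits, 2 fell and 1 rose (median -0.03), or 23.1% called, and with TPM scaling 7 were called higher and none lower. The phosphatase subunits PPP1CB and PPP1CA fell by 0.18 and 0.12 (-0.06 and 0.01 with TPM scaling, not called), and the kinase SRPK2, which phosphorylates SR tails, went from 7.23 ± 0.596 to 8.49 ± 0.316 FPKM (0.21, limma adjusted p = 0.031). The kinase genes SRPK1, CLK1, CLK2, CLK3 and CLK4 were not called, though SRPK1, CLK1, CLK3 and CLK4 were called higher with TPM scaling. Of 15 nonsense-mediated decay and exon junction genes, 7 fell and 1 rose (median -0.14), and with TPM scaling 3 were called in each direction. SMG9 (-0.41) and EIF4A3, the anchor of the exon junction complex (-0.36), fell most, and SMG1, the kinase that SMG9 binds and regulates, went from 5.2 ± 0.779 to 7.33 ± 0.334 FPKM (0.43, limma adjusted p = 0.01). Of 18 other splicing regulators 4 fell and none rose (median 0.01), or 22.2% lower, near the share of all genes, among them KHDRBS3 (-0.30) and MBNL3 (-0.29). With TPM scaling 3 of the 18 were called lower, MBNL3 not among them, and 9 higher. Whether any list differed from another was not tested.

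**Figure D4:**
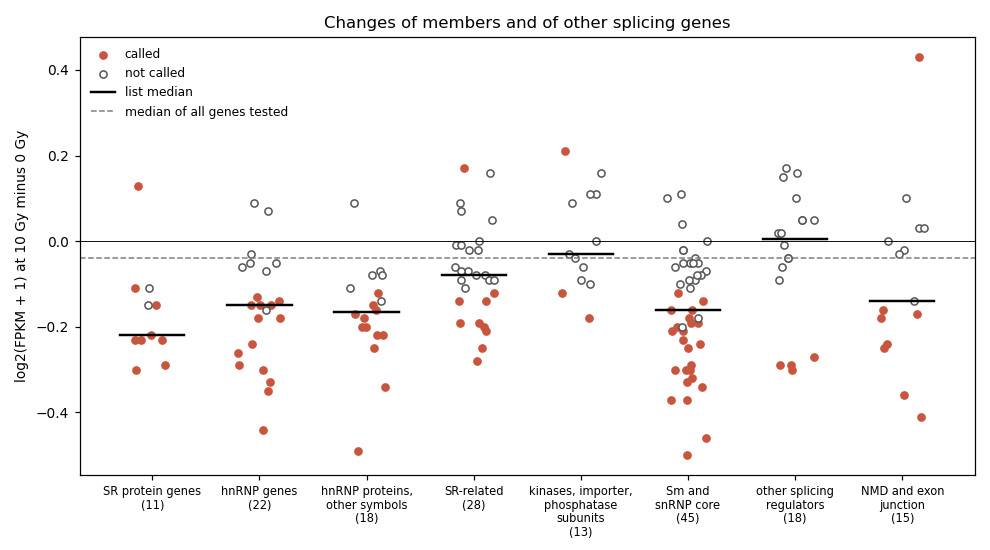
Difference of log2(FPKM + 1), 10 Gy minus 0 Gy, of each tested gene in the SR and hnRNP families and in the other splicing lists (number of genes in brackets), filled where called, with list medians as bars and the median of all genes tested as a dashed line. The medians of SR (-0.22) and hnRNP genes (-0.15) lie below the dashed line at -0.04, PCBP1 and LSM6 are the lowest points of their lists, and SMG1 at 0.43 is the highest point.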

How the data were processed

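PolyA RNA of 6 MDA-MB-231 libraries was sequenced, 3 at 0 Gy and 3 at 10 Gy, and libraries were grouped by the treatment in the labels. The authors deposited FPKM per gene, and HISAT2 and GRCh38 are named in the submitters' processing notes. The counting program and its strand setting are not given in the sources used here. The deposited gene lengths equal all exonic bases in GENCODE 29. Multiplying FPKM by gene length and depth gave whole reads (within 0.01) for 100% of values above 0. The depth in the FPKM also held a factor for each library, between 0.973 and 0.991 at 0 Gy and between 1.03 and 1.04 at 10 Gy. A factor above 1 lowers the FPKM. Recovered reads served for depth and for 1 alternative.

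Differences were fitted with limma 3.58.1 in R 4.3.3 on log2(FPKM + 1) with a trended eBayes prior over the 12128 genes that averaged 1 FPKM or more, and p-values were adjusted by Benjamini-Hochberg over all of them. Such differences understate the change of low genes. Alternatives changed the pseudocount, filter, scaling, variance trend, gene set, replicate block and libraries. Members and lists were chosen with earlier results of these data known. All 6 values are given for members past 1.3-fold, for the 3 highest of each family and for the lowest adjusted p in each direction. Other members given library by library, and the ratios within libraries, were chosen after their values were seen. Of each other list, up to 2 called genes with the largest change in each direction are named, while the uncalled kinase genes were picked afterwards. Promoters came from RefSeq GRCh38.p14 and figures from matplotlib 3.10.9.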

Additional observations from a re-analysis of the deposited data

How the results depend on the processing

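Of the 22 members called lower, 21 kept a negative difference under all 16 alternatives, the exception being SRSF6, and 10 kept the call wherever they were tested, SRSF8 being under the minimum of 10 FPKM. Scaling to TPM left 5 SR genes called (4 lower, median -0.09) and 9 hnRNP genes (6 lower, median -0.03). It turned the direction of SRSF6 (0.02), SRSF5 (0.01), HNRNPC (0.08, adjusted p = 0.042), HNRNPM (0.06), HNRNPH1 (0.09), HNRNPH2 (0.07) and HNRNPA1P48 (0.05). CPM of recovered reads called 4654 genes, 1877 of them lower. Of the members it called 9 hnRNP genes lower and 2 higher, and 6 SR genes lower and 1 higher. It gave medians of -0.15 (SR) and -0.08 (hnRNP), and turned HNRNPC (0.03), HNRNPM (0.00), HNRNPH1 (0.04), HNRNPH2 (0.02) and HNRNPA1P48 (0.00). TPM raises every difference by construction. CPM of recovered reads leaves out the depth factor of the FPKM, which was 0.973 to 0.991 at 0 Gy and 1.03 to 1.04 at 10 Gy. For each gene the FPKM and the CPM rest on the same reads and a fixed gene length. Between libraries they differ by this factor alone, so apart from the effect of the added 1 the CPM shift follows by construction.

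A minimum of 10 FPKM, which tests fewer genes, called 2687 genes in place of 4317, and 2912 were called with no filter. Leaving out 1 library gave 2651 (without RT replicate 2) to 3975 genes called, 6 to 9 SR and 10 to 14 hnRNP genes, SR medians of -0.22 to -0.20 and hnRNP medians of -0.17 to -0.14. Without RT replicate 1, 2711 genes, 6 SR and 10 hnRNP genes were called, and HNRNPA1P48 ranged from -0.12 (without control replicate 2) to 0.00 (without control replicate 1). Fewer libraries leave fewer degrees of freedom.

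With a replicate block 3503 genes, 6 SR genes (0 higher) and 11 hnRNP genes were called. Deviations from the group mean correlated at -0.0405, -0.0349 and -0.1011 between same-numbered libraries. With 3 libraries a dose this cannot settle whether they share more than a number. Over the other settings of single members, 451 kept direction and side of the threshold, 50 lost the call, 9 gained it and 13 turned. Depth limits HNRNPA1L2 most, with at most 171 reads a library.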
